A study of Mus musculus with 12 samples.

Results

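The cytosolic chaperone system of heat shock proteins HSP70, HSP90 and HSP40 is described here through 10 genes of the mouse heart. They are Hspa1a, Hspa1b, Hspa8, Hspa4, Hsph1, Hsp90aa1, Hsp90ab1, Dnaja1, Dnajb1 and Dnajb4. They were chosen by name, each as the row of the count table whose Ensembl ID carries that symbol, and all 10 were found among 21959 gene IDs. Poly-A RNA was sequenced from the ventricles of 12 male mice, 7 weeks old and on a chow diet. One group was 6 wild-type mice (WT) and the other 6 mice with a cardiac knockout of Vps13c (Vps13c-cKO), which encodes a bridge-like protein that moves lipids between organelle membranes. The sources used here name neither the driver or exons of the knockout nor whether WT mice carried a driver. By its title, each sample is a separate mouse.

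HSP70 proteins bind exposed stretches of unfolded protein and release them in a cycle driven by ATP. J-domain proteins (HSP40) deliver clients to HSP70 and start ATP hydrolysis, HSP110 proteins exchange the nucleotide, and HSP90 finishes the folding of kinases, receptors and, in muscle, myosin. Cells hold constitutive members (Hspa8, Hspa4, Hsp90ab1) beside members that heat shock factor 1 (HSF1) induces under protein stress (Hspa1a, Hspa1b, Dnajb1, Hsph1, Hsp90aa1). HSF1 binds heat shock elements, repeats of the letters GAA in alternating orientation.

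Promoter sequences show how alike the inducible HSP70 pair is, and which genes carry such repeats close to their start. The 250 bases before the RefSeq start (build GRCm38.p6, another build than the GRCm39 of the counts) follow for that pair and for Hsph1 and Hspa4, which are described further on as higher in Vps13c-cKO. Bases are in lower case, and capitals mark a paired repeat, either GAANNTTC or TTCNNGAA. Each of these reads the same on both strands.
Hspa1a, chr17:34972157-34972406, minus strand: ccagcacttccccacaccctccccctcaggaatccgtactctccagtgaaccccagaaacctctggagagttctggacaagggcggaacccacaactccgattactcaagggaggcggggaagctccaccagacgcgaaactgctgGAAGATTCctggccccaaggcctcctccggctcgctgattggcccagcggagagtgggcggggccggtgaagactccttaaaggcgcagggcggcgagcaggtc
Hspa1b, chr17:34959239-34959488, minus strand: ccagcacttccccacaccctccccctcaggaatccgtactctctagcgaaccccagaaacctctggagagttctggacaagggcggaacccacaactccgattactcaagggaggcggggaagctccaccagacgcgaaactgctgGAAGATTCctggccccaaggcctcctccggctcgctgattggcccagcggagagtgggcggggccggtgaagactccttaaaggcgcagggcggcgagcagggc
Hsph1, chr5:149636316-149636565, minus strand: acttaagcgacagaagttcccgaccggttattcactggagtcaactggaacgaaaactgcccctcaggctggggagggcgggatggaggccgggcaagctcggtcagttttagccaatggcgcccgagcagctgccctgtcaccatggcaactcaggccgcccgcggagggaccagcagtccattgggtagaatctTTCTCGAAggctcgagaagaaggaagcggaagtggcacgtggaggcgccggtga
Hspa4, chr11:53300480-53300729, minus strand: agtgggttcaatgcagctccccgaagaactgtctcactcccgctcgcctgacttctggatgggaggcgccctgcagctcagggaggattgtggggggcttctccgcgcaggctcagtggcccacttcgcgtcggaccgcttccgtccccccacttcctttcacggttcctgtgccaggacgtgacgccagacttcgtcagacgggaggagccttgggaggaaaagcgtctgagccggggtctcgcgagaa
Between the Hspa1a and Hspa1b stretches only 3 of 250 positions differed, and the repeat began 104 bases before the start in both. In Hsph1 it began 54 bases before the start shown. Hsph1 had in addition 3 alternating units (TTCNNGAANNTTC, or its reverse complement GAANNTTCNNGAA, which overlap the paired repeats), beginning at transcribed base 16 of the same start. It is shown in capitals with 8 flanking bases on each side.
Hsph1, chr5:149636280-149636308, minus strand: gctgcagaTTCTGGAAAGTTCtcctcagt
Promoter windows (250 bases before to 50 after a start) were given for 7 of the 10 genes, and 5 of these held a paired repeat: Hspa1a, Hspa1b, Hsph1, Dnaja1 (124 bases before 1 of its starts) and Dnajb4 (14 bases before 1 of its starts). The windows of Hspa4 and Dnajb1 held none, which says nothing of elements elsewhere. Dnaja1 and Dnajb4 each had further windows without one. Over all genes with a window, 17.0% of 27025 held a paired repeat in at least 1 window and 0.662% held 3 alternating units. Per window the shares were 15.1% and 0.603% of 32851. A match describes letters and not binding.

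Reads of near-identical genes cannot always be placed, and the sources used here do not say how the counting handled them. Of the 100-base stretches of the longest coding transcript (GENCODE M21), 56.5% in Hspa1a and 49.9% in Hspa1b also occur in transcripts of other genes, chiefly in each other. The share was 63.4% in Hspa8, 47.5% in Hsp90aa1 and 24.0% in Dnaja1, where the gene sharing the most was in each case one with a Gm (predicted gene) symbol. For Hspa4, Hsph1, Hsp90ab1, Dnajb1 and Dnajb4 it was 0%. Levels of the first 5 genes are uncertain to that extent. The protocol mentions no strand marking, and exons of Dnaja1 overlap Smu1, and those of Hspa1a overlap Gm20481, on the opposite strand.

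Libraries held 12484523 to 15562942 gene counts. Vps13c fell in Vps13c-cKO from 61.9 ± 4.85 to 18.2 ± 1.58 CPM (mean ± SD, n = 6 each; CPM is counts per 1000000 counts of a library, scaled by TMM), with all 6 knockout mice below all 6 WT mice (log2 -1.77 ± 0.06 SE, edgeR adjusted p = 4.47e-14). Cardiomyocyte markers were abundant, with Myh6 at 26390 ± 1489 CPM (SD, n = 6) in WT. Markers of other cells moved with the genotype. Of the marker genes tested, 6 of 9 fibroblast genes were higher (summed level 1132 to 1237 CPM in WT and 1290 to 1454 CPM in Vps13c-cKO), as were 3 of 8 macrophage genes (260.8 to 372.4 and 318.5 to 390.7 CPM), and 0 of either were lower. Lower were 1 of 8 endothelial, 2 of 7 smooth muscle and pericyte, and 3 of 10 cardiomyocyte genes, and 1 gene of each of the last 2 lists was higher. The sum of atrial markers ran from 3.76 to 76.7 CPM in WT and from 13.5 to 28.5 CPM in Vps13c-cKO, and 1 of the 2 tested atrial genes was higher and 0 lower. Only 4 of 9 fast skeletal muscle genes passed the filter on low counts. All 4 lie on chromosome 7, and all 4 were higher. Their WT means were 0.605 to 0.783 CPM, so the filter could keep them through their Vps13c-cKO level, which favors that direction. The sum of all 9, which uses no filter, was 2.36 to 3.91 CPM in WT and 41.0 to 73.1 CPM in Vps13c-cKO. Most of the Vps13c-cKO sum came from the 4 tested genes, whose means there were 33.0, 7.32, 6.59 and 4.95 CPM. The adipocyte sum stayed under 1 CPM in all mice. Core clock genes changed as well: 2 of 14 were higher (Per2 among them, 17.4 to 25.6 CPM) and 3 lower (Arntl among them, 11.7 to 6.53 CPM). Per2 missed the threshold with robust empirical Bayes (adjusted p = 0.0882). Hours of tissue collection are not given among the labels. The part of cell composition and of the clock in the chaperone values was not tested, and in whole tissue more RNA per cell and more cells of a type cannot be told apart.

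Hsp90ab1 and Hspa8, both constitutive, had the highest levels of the 10 genes in the ventricle. Together the 10 genes summed to 3076 ± 185.5 CPM (SD, n = 6) in WT and 3192 ± 168.7 CPM in Vps13c-cKO, with overlapping ranges. Per length, in CPM per kilobase of exon (GENCODE M21), the WT level was highest for Hsp90ab1 at 501 ± 15.8 (SD, n = 6) and Hspa8 at 477 ± 44.3, whose ranges overlapped. Far lower came Dnajb4 at 54.6 ± 4.98, Hsp90aa1 at 49.9 ± 5.44 and Hspa4 at 43.8 ± 1.54 CPM per kilobase. In this middle group, each gene overlapped the next in range. Hsph1 at 14.1 ± 1.64 and Dnaja1 at 11.7 ± 1.29 CPM per kilobase overlapped in turn, while Dnajb1 stood below them at 4.03 ± 0.772. The inducible HSP70 genes had the lowest levels, Hspa1b at 0.314 ± 0.0560 and Hspa1a at 0.155 ± 0.0559 CPM per kilobase, without overlap between them. The order was measured across genes within the same mice. Lengths of other transcript sets could move it, and so could the handling of reads shared between genes, which differs in weight from gene to gene.

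**Figure D1:**
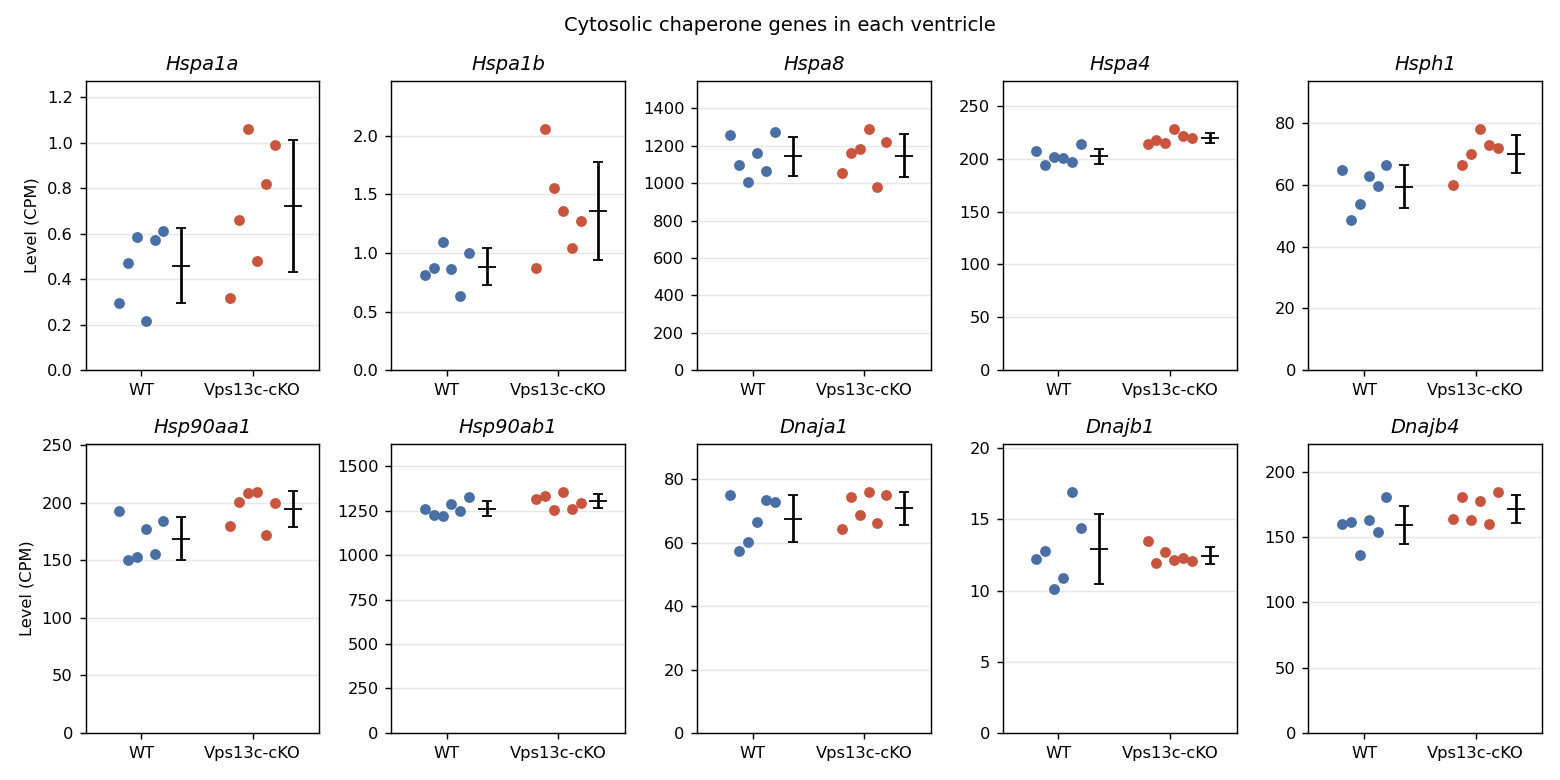
Level of each chaperone gene in CPM (y axis, from 0, scaled per gene) in 6 WT and 6 Vps13c-cKO ventricles. Points are mice and bars are mean ± SD; the groups are separate for Hspa4 and overlap for the other 9 genes, and Hspa1a and Hspa1b lie near 1 CPM.

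Of the chaperone genes, 3 were higher in Vps13c-cKO, by 1.09- to 1.18-fold, and none was lower. Of the 10 genes, 9 passed the filter on low counts, and Hspa4, Hsph1 and Hsp90aa1 passed the threshold (edgeR quasi-likelihood test, adjusted p under 0.05). Across all 12384 genes tested, 5.65% were higher and 5.1% lower by this rule (10.7% in either direction). The 6 other tested genes did not pass. The median log2 fold change of the 9 tested genes was 0.108, against 2.75e-05 for all tested genes, which is a description of genes chosen by name and no test.

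Hspa4, an HSP110 protein that acts as nucleotide exchange factor of HSP70, was the only one whose groups did not overlap. Its level (ENSMUSG00000020361, chromosome 11) was 193.9, 200.9 and 213.7 CPM at the lowest, median and highest in WT, and 214.4, 218.8 and 227.9 CPM in Vps13c-cKO. Every knockout mouse thus stood above every WT mouse, although the gap between the groups was under 1 CPM. Over all genes, 2.75% had all knockout mice above all WT mice, and 4.93% had no overlap in either direction. The log2 fold change of Hspa4 was 0.12 ± 0.03 (SE), or 1.09-fold (95% interval 1.03 to 1.14; edgeR adjusted p = 0.0255). The change is small, but so was the spread: the biological coefficient of variation was 0.0428, and only 3.85% of tested genes had a lower one. The call ended when 1 mouse was left out, with an adjusted p of 0.068 without WT mouse 2, 0.0597 without WT mouse 5, 0.0726 without Vps13c-cKO mouse 4 and 0.0516 without Vps13c-cKO mouse 5.

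Hsph1 encodes HSP105, the stress-inducible HSP110. Its level (ENSMUSG00000029657, chromosome 5) was 48.6, 61.3 and 66.5 CPM at the lowest, median and highest in WT, and 60.0, 71.0 and 78.1 CPM in Vps13c-cKO. In Vps13c-cKO, 5 of 6 mice lay above the highest WT mouse, and mouse 1 fell within the WT range. Its log2 fold change was 0.24 ± 0.07 (SE), or 1.18-fold (95% interval 1.07 to 1.30; edgeR adjusted p = 0.0287). The adjusted p rose past the threshold without WT mouse 2 (0.0723) or 3 (0.0715), and without Vps13c-cKO mouse 4 (0.087), 5 (0.0627) or 6 (0.0558). With robust empirical Bayes it was 0.0635.

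Hsp90aa1 encodes the inducible cytosolic HSP90. Its level (ENSMUSG00000021270, chromosome 12) was 150.0, 166.3 and 192.9 CPM at the lowest, median and highest in WT, and 171.6, 199.7 and 209.2 CPM in Vps13c-cKO. Here 4 of 6 knockout mice lay above the WT range and all 6 above the WT median. The log2 fold change of Hsp90aa1 was 0.21 ± 0.06 (SE), or 1.15-fold (95% interval 1.06 to 1.26; edgeR adjusted p = 0.0344). Of the 3 calls this one was lost in the most alternatives: the adjusted p was 0.0911 without WT mouse 2, 0.0864 without WT mouse 3 and 0.0729 without WT mouse 5. Without Vps13c-cKO mouse 2, 3, 4 or 6 it was 0.0678, 0.0782, 0.0927 and 0.062, and with robust empirical Bayes 0.0924.

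Neither constitutive partner passed the threshold. Hsp90ab1, the constitutive HSP90 (chromosome 17), ranged from 1223 to 1327 CPM in WT and from 1256 to 1356 CPM in Vps13c-cKO, a log2 fold change of 0.05 ± 0.03 (SE; edgeR adjusted p = 0.398). Its 95% interval of 0.988- to 1.08-fold sets a narrow limit on any difference. Hspa8, the constitutive HSC70 that serves folding, clathrin uncoating and chaperone-mediated autophagy (chromosome 9), ranged from 1008 to 1271 CPM in WT and from 977.1 to 1288 CPM in Vps13c-cKO. Its log2 fold change was 0.01 ± 0.06 (SE), a 95% interval of 0.920- to 1.10-fold (adjusted p = 0.968). For both genes most knockout mice lay inside the WT range.

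The inducible HSP70 genes had too few reads for a firm statement. Hspa1a (ENSMUSG00000091971) had 3 to 9 counts per WT mouse and 4 to 15 per Vps13c-cKO mouse, 39 and 59 in sum, and did not pass the filter. Hspa1b (ENSMUSG00000090877) had 10 to 15 and 11 to 28 counts, or 0.637, 0.871 and 1.09 CPM (lowest, median, highest) in WT and 0.874, 1.32 and 2.05 CPM in Vps13c-cKO. For Hspa1b 4 of 6 knockout mice lay above the WT range. Its log2 fold change was 0.63 ± 0.24 (SE), with a 95% interval of 1.11- to 2.18-fold, and the edgeR adjusted p was 0.0913 (0.0551 to 0.227 over the alternatives that kept it as its own gene). Because reads of the pair are hard to separate, their counts were also summed, a choice made after the values were seen. The sum was 15 to 23 counts in WT and 15 to 37 in Vps13c-cKO, with 5 of 6 knockout mice above the WT range in CPM. Its log2 fold change was 0.64 ± 0.21 (SE) and its adjusted p 0.0499. Leaving out single mice ended that call in 10 of 12 cases (adjusted p = 0.0521 to 0.119), the exceptions being WT mouse 3 (0.0459) and Vps13c-cKO mouse 1 (0.015).

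None of the 3 J-domain genes passed the threshold (edgeR quasi-likelihood test). Dnaja1, a class A co-chaperone of HSC70 (chromosome 4), ranged from 57.5 to 75.2 CPM in WT and from 64.2 to 76.1 CPM in Vps13c-cKO, a log2 fold change of 0.07 ± 0.06 (SE; edgeR adjusted p = 0.577). Dnajb4, a class B co-chaperone abundant in muscle (chromosome 3), ranged from 136.1 to 180.9 CPM in WT and from 160.0 to 184.4 CPM in Vps13c-cKO. It gave a log2 fold change of 0.11 ± 0.05 (SE; edgeR adjusted p = 0.23), with a 95% interval of 0.997- to 1.16-fold. Dnajb1, the heat-inducible HSP40 (chromosome 8), was at 10.1, 12.5 and 16.9 CPM (lowest, median, highest) in WT and at 12.0, 12.2 and 13.5 CPM in Vps13c-cKO. All 6 knockout mice fell inside the WT range of Dnajb1, and the log2 fold change was -0.06 ± 0.10 (SE; adjusted p = 0.8), or 0.04 without WT mouse 5, the highest mouse. The coefficient of variation of Dnajb1 was 19.2% in WT and 4.65% in Vps13c-cKO, a difference that was not tested.

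**Figure D2:**
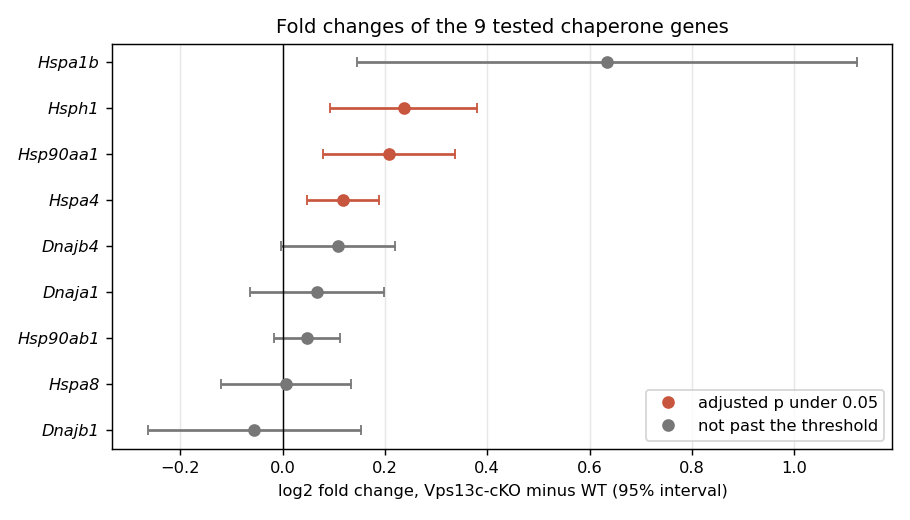
Log2 fold change, Vps13c-cKO minus WT (x axis), with 95% intervals for the 9 tested chaperone genes (y axis, ordered by size). Hspa4, Hsp90aa1 and Hsph1 pass the threshold at 0.12, 0.21 and 0.24, and Hspa1b has the highest value and the widest interval.

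Ratios between chaperone genes were compared next, since a ratio within a mouse needs no scaling between libraries. The HSP70, HSP90 and HSP110 ratios set inducible over constitutive genes, and the others compared J-domain genes. Of 5 ratios, 0 passed after adjustment (two-sided exact permutation tests, Benjamini-Hochberg over 5, and 1 at an unadjusted p under 0.05). The log2 ratio of the Hspa1a and Hspa1b sum to Hspa8 was -9.75 ± 0.33 (SD, n = 6) in WT and -9.15 ± 0.40 in Vps13c-cKO. The difference of 0.60 had an exact permutation p of 0.0216 (adjusted p = 0.108). It was higher than the WT median in 5 of 6 knockout mice. Hsp90aa1 over Hsp90ab1 was at -2.91 ± 0.13 and -2.75 ± 0.11 on the log2 scale (exact permutation p = 0.0628, adjusted p = 0.157). All 6 knockout mice exceeded the WT median of this ratio, and 3 exceeded the WT range. Hsph1 over Hspa4 was at -1.77 ± 0.14 and -1.65 ± 0.10 (exact permutation p = 0.123, adjusted p = 0.206). Vps13c-cKO mouse 1 was the lowest knockout mouse in both the HSP70 and the HSP110 ratio. Without it the differences were 0.73 and 0.16 on the log2 scale, each with an exact permutation adjusted p of 0.0433. Leaving out the lowest knockout mouse raises such a difference by construction, so these values are no separate evidence of a shift. In the other 13 alternatives neither ratio passed, with exact permutation adjusted p up to 0.216 (HSP70) and 0.411 (HSP110). Dnajb1 over Dnaja1 and Dnajb4 over Dnajb1 differed by -0.10 and 0.14 (exact permutation adjusted p = 0.394 and 0.344).

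**Figure D3:**
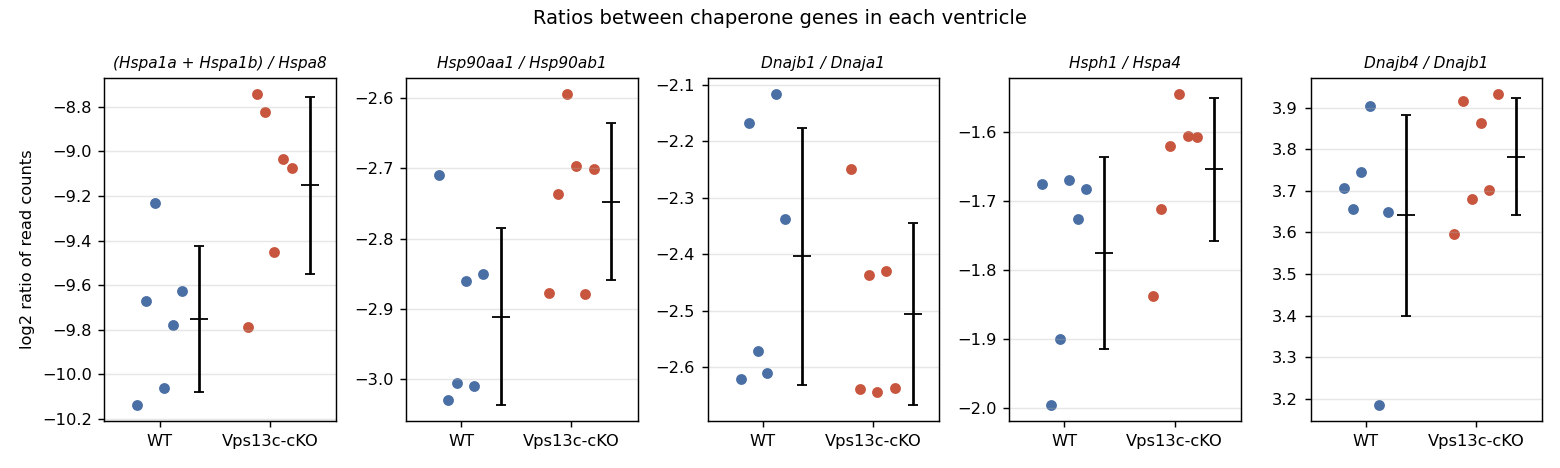
Log2 ratio of read counts (y axis) for 5 pairs of chaperone genes in 6 WT and 6 Vps13c-cKO ventricles, with points for mice and bars for mean ± SD. The groups overlap in every pair; the HSP70 ratio lies at -9.75 in WT and -9.15 in Vps13c-cKO on average.

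Between mice of one genotype, 6 pairs of genes were examined. By Pearson's r of log2 CPM over all 6 mice, Hsp90aa1 with Hspa8 had the highest value in each group, 0.913 in WT (n = 6, exact permutation p = 0.0208) and 0.949 in Vps13c-cKO (n = 6, exact permutation p = 0.00833). Adjusted over the 12 relations computed, these were p = 0.125 and 0.1 (exact permutation), so neither passed. Spearman's rho was 0.771 and 0.829 (exact permutation p = 0.103 and 0.0583, adjusted p = 0.308 each). Without the 2 mice farthest from the median of Hsp90aa1, r was 0.746 in WT and 0.493 in Vps13c-cKO, so the latter rests on those mice. Other measures ordered the pairs differently in WT: rho was 0.829 for Hsph1 with Hspa8 (exact permutation p = 0.0583, adjusted p = 0.308), and r without the 2 farthest mice was 0.982 for that pair and 0.959 for Hsp90aa1 with Hsp90ab1. Across the 12 relations the exact permutation adjusted p of r ran from 0.1 to 0.768. Of the 6 pairs, 3 involve Hspa1a, with only 3 to 15 counts a mouse.

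Relatives of the HSP70 genes went in both directions. Of 6 other cytosolic HSP70 and HSP110 genes tested, 1 was higher and 2 lower, with a median log2 fold change of 0.0677. The higher one was Hspa4l, the remaining cytosolic HSP110 gene, at 78.2 ± 6.05 CPM in WT and 87.5 ± 2.86 CPM in Vps13c-cKO (SD, n = 6 each), with a log2 difference of 0.16 ± 0.05 (SE, edgeR adjusted p = 0.0275). All 3 cytosolic HSP110 genes, Hspa4, Hsph1 and Hspa4l, were thus higher. That grouping was made after their values were seen. The call of Hspa4l ended without WT mouse 2 (0.0723) or 3 (0.0633) and without Vps13c-cKO mouse 3 (0.0594) or 5 (0.0663), each an edgeR adjusted p. In contrast, Hspa12a fell from 56.3 ± 6.34 to 41.2 ± 2.69 CPM without overlap between groups (log2 -0.45 ± 0.06 SE, adjusted p = 7.15e-05). Hspa12b, a relative linked to endothelial cells, fell from 37.5 ± 3.51 to 31.7 ± 2.54 CPM (log2 -0.24 ± 0.06 SE, adjusted p = 0.0165). Both are distant HSP70 relatives.

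Some co-chaperones and no further J-domain gene passed the threshold, which 10.7% of all tested genes passed. Of 17 tested J-domain genes, 0 were called by edgeR, DESeq2 or limma-voom, and 6 had an unadjusted edgeR p under 0.05. Their median log2 fold change was 0.015. Among 12 HSP70 co-chaperones, 0 were higher and 1 was lower, Hikeshi, which carries HSP70 into the nucleus (22.3 ± 1.62 to 19.1 ± 1.31 CPM, SD, n = 6 each; edgeR adjusted p = 0.0257), with a median log2 fold change of 0.0135 for the list. The Hikeshi call ended without WT mouse 1 (adjusted p = 0.0621) or 5 (0.0509) and without Vps13c-cKO mouse 2 (0.0631) or 4 (0.0618). Among 22 HSP90 co-chaperones, 1 was higher and 1 lower, with a median of 0.0194. Smyd2, a methyltransferase that works with HSP90 on titin in muscle, rose from 36.1 ± 1.62 to 41.8 ± 3.51 CPM. Itgb1bp2, which encodes the muscle HSP90 partner melusin, fell from 152.3 ± 4.35 to 138.5 ± 9.26 CPM (edgeR adjusted p = 0.0155 and 0.0411). The call of Itgb1bp2 ended without any 1 of WT mice 1, 3, 4, 5 and 6 (adjusted p = 0.0567, 0.0533, 0.0644, 0.0872 and 0.053) or Vps13c-cKO mice 1, 2 and 4 (0.0973, 0.0643 and 0.0795). Of 14 subunits of the chaperonin TRiC and of prefoldin, 0 were called by edgeR and 1 each by DESeq2 and limma-voom, and 1 had an unadjusted edgeR p under 0.05. The median of that list was -0.00289.

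No transcription factor gene of the heat shock response passed the threshold. Of 4 genes tested (Hsf1, Hsf2, Hsf4 and Hsbp1, which encodes an HSF-binding protein), 0 were called by edgeR, DESeq2 or limma-voom, and 0 had an unadjusted p under 0.05. Their median log2 fold change was 0.0388. Hsf1 was at 22.0 ± 1.56 CPM in WT and 22.5 ± 1.13 CPM in Vps13c-cKO (SD, n = 6 each), with a log2 fold change of 0.03 ± 0.06 (SE, 95% interval -0.09 to 0.16) that turned to -0.0042 without WT mouse 6. Hsf2 was at 22.2 ± 1.38 and 20.8 ± 2.92 CPM (log2 -0.09 ± 0.08 SE). HSF1 acts through trimer formation and nuclear entry, which RNA levels do not measure. The cold-inducible RNA-binding genes Cirbp and Rbm3 had log2 fold changes of 0.02 ± 0.10 and 0.12 ± 0.06 (SE; edgeR adjusted p = 0.928 and 0.24). The sign of Cirbp turned without WT mouse 1, 5 or 6 or Vps13c-cKO mouse 1 or 5 (-0.0290, -0.0146, -0.0243, -0.0138 and -0.0227).

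Other genes known from the heat shock response changed in both directions. Of 14 tested, 5 were higher and 2 lower, with a median log2 fold change of 0.0151. Ier5, an immediate early protein that activates HSF1, rose from 17.1 ± 1.45 to 26.0 ± 2.97 CPM (log2 0.61 ± 0.08 SE, edgeR adjusted p = 1.93e-05). Hspb1, the small heat shock protein HSP27, rose from 76.0 ± 1.13 to 89.2 ± 5.03 CPM (adjusted p = 0.000517). For both, all 6 knockout mice stood above all 6 WT mice. The collagen chaperone gene Serpinh1 fell from 162.3 ± 16.2 to 140.0 ± 9.94 CPM (SD, n = 6 each; edgeR adjusted p = 0.0207). Serpinh1 missed the threshold without WT mouse 1 (0.0505) or Vps13c-cKO mouse 5 (0.0556). Chaperones of other compartments were examined for comparison. Of 13 in the endoplasmic reticulum and mitochondria, 0 were higher and 2 lower, namely Hspa5 (log2 -0.25 ± 0.07 SE, edgeR adjusted p = 0.0237) and Dnajb9 (log2 -0.23 ± 0.05 SE, adjusted p = 0.0034). Hspa5 missed the threshold with DESeq2 (0.0819), with robust empirical Bayes (0.122), without WT mouse 1 (0.0596) or 6 (0.057), and without Vps13c-cKO mouse 2 (0.0551), 3 (0.0512) or 5 (0.0619). The median log2 fold change of the 13 was -0.0348. No test compared these lists with one another.

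**Figure D4:**
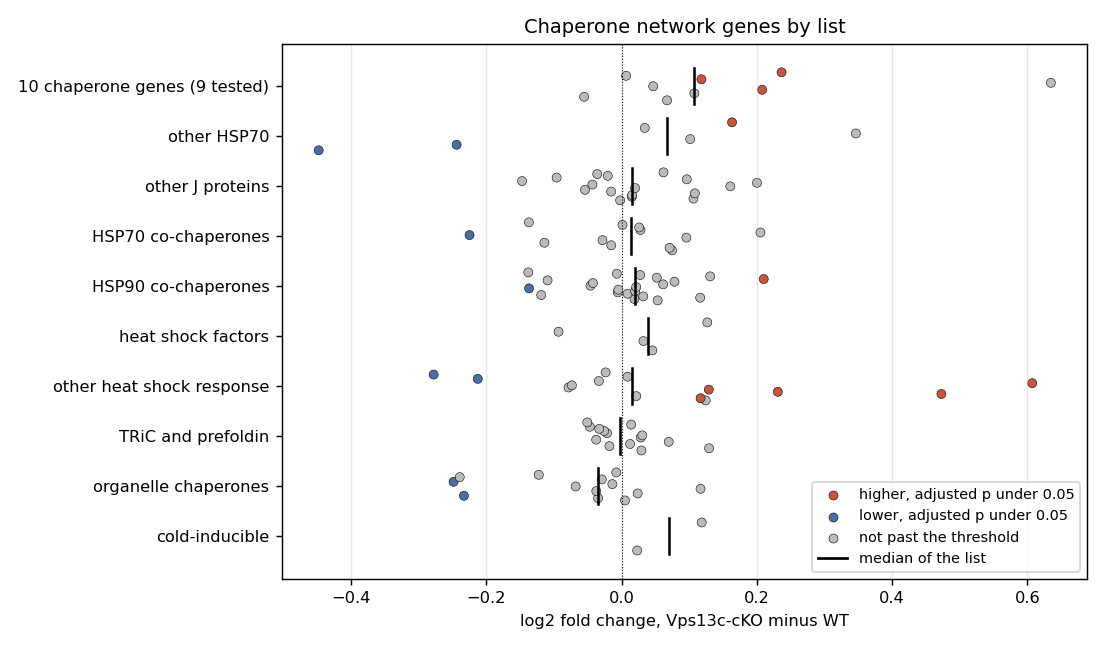
Log2 fold change, Vps13c-cKO minus WT (x axis), of the tested genes in 10 lists of the chaperone network (y axis); each point is a gene, and the bar is the list's median. No gene of the J protein list or of the TRiC and prefoldin list was called. Of the 9 tested chaperone genes, 3 were higher and 0 lower. Of 14 other heat shock response genes, 5 were higher and 2 lower. Over all tested genes, 5.65% were higher and 5.1% lower.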

How the data were processed

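Poly-A RNA of ventricles from 12 mice was fragmented, copied from random primers and amplified by PCR, with no molecular identifiers mentioned, per the labels' protocols. The authors deposited a table of raw read counts, genes by mice, per the file headers, of which 0 sample columns were left out. HISAT2 2.1.0, fastp 0.22.0 and HTSeq 0.9.1, with the build GRCm39, are listed in the submitters' processing notes. The sources used here do not give the annotation, the strand setting or the treatment of multiply placed reads. Symbols (21851 of 21959 IDs), exon lengths and transcripts came from GENCODE M21, and promoter sequences from RefSeq, both on GRCm38.

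Genes were filtered with filterByExpr and tested with the two-sided quasi-likelihood test of edgeR 4.0.16, run in R 4.3.3 on TMM-scaled libraries. P-values were adjusted over 12384 genes by Benjamini and Hochberg. They weigh the difference between genotypes against the spread between mice. The fitting script was tested on simulated data. Alternatives were other scaling, other filters, DESeq2 1.42.0, robust empirical Bayes, limma-voom (3.58.1) without and with sample weights, 1 surrogate variable (sva 3.50.0), a replicate block and fits without each mouse in turn. Hspa1a and Hspa1b were also summed, an alternative chosen after seeing the data. Ratios and correlations used exact permutation tests (scipy 1.17.1). Of 6 against 6 mice, the smallest such p is 0.00216. Chi-square tests of counts gave at least 3.11 per gene between any 2 replicates, so no pair was treated as 1 library. The chaperone genes, lists and tests were chosen with earlier results of these data known. Named outside the 10 genes are Vps13c, Hsf1, Hsf2, Cirbp and Rbm3, up to 4 called genes with the smallest p of each list, and the 3 genes most like each chaperone gene. Myh6, Smu1, Gm20481, Hsf4 and Hsbp1 were added for the checks or lists they serve, and 1 gene that the rule names is not reported here.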

Additional observations from a re-analysis of the deposited data

Results flagged for a closer look

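Values of 1 mouse stood apart from the other 5 of its group in 4 of the 76 groups examined, by Dixon's gap criterion at the 95% level, which chance passes in about 1 of 20 groups. Hsf2 was at 26.5 CPM in Vps13c-cKO mouse 6 and at 18.8 to 21.3 CPM in the other knockout mice. The same mouse had Hspa5 at 741 CPM against 548 to 616 CPM. Dnajb9 was at 69.1 CPM in Vps13c-cKO mouse 2 against 57.9 to 61.5 CPM. The log2 ratio of Dnajb4 to Dnajb1 was 3.18 in WT mouse 5 and 3.65 to 3.90 in the other WT mice, and this mouse had the highest Dnajb1 level of all 12.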

How the results depend on the processing

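The number of chaperone genes called was 3 under the alternatives of scaling, filter, DESeq2, limma-voom, surrogate variable and replicate block. It was 1 with robust empirical Bayes and 0 to 3 when single mice were left out, being 0 without WT mouse 2 and without Vps13c-cKO mouse 4. Over all genes, 1065 to 1478 were called in any of these settings, against 1331. The direction of Hspa8 reversed without a filter (-0.00083), with 1 surrogate variable (-0.0069) and in leave-one-out fits (-0.0312 to 0.0484), and that of Dnajb1 only in leave-one-out fits (-0.116 to 0.0418). The other 7 genes had positive values in each alternative that tested them (Hspa1b was untested at a minimum mean of 5 CPM). The summed count of Hspa1a and Hspa1b, not Hspa1b itself, passed at 0.64, and 10 of 12 leave-one-out fits ended that call. The cause of these shifts was not tested, though each leave-one-out fit holds fewer samples. Leaving out single mice gave 0.517 to 0.726 for the HSP70 ratio and 0.0764 to 0.157 for the HSP110 ratio on the log2 scale. Over all alternatives of these ratios, the exact permutation adjusted p ran from 0.0433 to 0.216 (HSP70) and from 0.0433 to 0.411 (HSP110). Both ratios passed only without Vps13c-cKO mouse 1, the lowest knockout mouse in each. Same-numbered mice were not shown to be paired, with correlations of their deviations of -0.0396 to 0.0618. With the replicate block, 3 chaperone genes and 1312 genes in all were called, and no call among the chaperone genes changed. Correlations that changed sign without 1 mouse ran from -0.17 to 0.654 (Hspa1a with Hspa1b, Vps13c-cKO), -0.102 to 0.759 (the same, WT), -0.783 to 0.505 (Dnajb1 with Hspa1a), -0.455 to 0.928 (Hsph1 with Hspa1a) and -0.103 to 0.77 (Hsp90aa1 with Hsp90ab1), the last 3 in Vps13c-cKO. Outside the 10 genes, leave-one-out fits turned Hsf1 (-0.00417 to 0.0556) and Cirbp (-0.029 to 0.0915). Counts were lowest for Hspa1a and Hspa1b, and the part of depth and of reads that cannot be placed was not tested.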

Other observations

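For each tested chaperone gene, the genes whose deviations from the group mean were most alike over the 12 mice were listed, by Pearson's r among 11228 genes whose mean log2 CPM was at least 1. The values are descriptions, since the highest of so many correlations is high by selection, and all points share library and scaling. Hspa8 was most like P4ha1, a collagen prolyl hydroxylase (r = 0.961), Chordc1, an HSP90 co-chaperone (0.915), and Hsp90aa1 (0.914). Hsp90aa1 was most like P4ha1 (0.936), Hspa8 (0.914) and Pdia3, a disulfide isomerase of the endoplasmic reticulum (0.897). P4ha1 thus led both lists, and Hspa8 and Hsp90aa1 stood in each other's. The lists of the remaining genes held no other chaperone of the 10. They were Hcfc1, Birc3 and Cd84 for Hspa4 (0.891 to 0.901), Lcn2, Tifa and Bloc1s6 for Hsph1 (0.902 to 0.908), and Coq2, Copa and Trpv4 for Hsp90ab1 (0.864 to 0.886). For the J-domain genes they were Rock2, Nhsl2 and Lrp6 for Dnaja1 (0.874 to 0.897), Irs2, Zfp655 and Pgpep1 for Dnajb1 (0.868 to 0.893), and Oma1, Zfp874b and Rprd1a for Dnajb4 (0.891 to 0.933). Col4a3bp, Cep44 and Aktip led for Hspa1b (0.842 to 0.901), whose counts are low.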
